A study of Mus musculus with 9 samples.

Results

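The 10 genes described here encode AP-1 subunits and immediate early factors: Fos, Fosb, Fosl1, Fosl2, Jun, Junb, Jund, Egr1, Ier2 and Atf3. They were taken by name from the 32137 genes of the deposited count files, where each name occurs once, and all 10 were among the 17011 genes with enough counts to be tested. RNA was sequenced from sorted cells of differentiated bile duct organoids in 9 libraries, and every organoid came from 1 male mouse of mixed background with the genotype Axin2CreERT2+/-; R26-LSL-tdTom+/-. In this genotype a tamoxifen-activated Cre recombinase is driven by Axin2, a Wnt target gene, and Cre switches on the red reporter tdTomato. All organoids had an expansion of 2 to 4 days and then 11 days of differentiation, and all received 3 uM dexamethasone and 500 nM 4-OHT, the active form of tamoxifen, in the final 24 h. Untreated organoids got no further supplement and gave tdTomato-negative cells (untreated). Organoids that also received Rspo1 at 100 ng/ml, a secreted protein that strengthens Wnt signalling, gave tdTomato-negative cells (Rspo1-negative) and tdTomato-positive cells (Rspo1-positive). Each group has 1 library from each of passages 5, 6 and 10, so that n = 3 throughout, and replicates 1, 2 and 3 are these passages.

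AP-1 is a dimeric transcription factor made of a Fos-family protein with a Jun-family protein, or of Jun-family proteins alone, that binds DNA through a basic region and a leucine zipper. Transcription of immediate early genes starts within minutes of a growth factor, cytokine or stress signal. It needs no new protein and is soon shut off again, whereas Jund is less dependent on such signals. Immediate early genes are also known to be induced while tissue is digested into single cells. All 9 libraries came from cells dissociated with TriplE for 7 min at 37 °C and then sorted. No library of cells kept intact was analysed here, so levels in the organoid before dissociation cannot be told apart from levels reached during it.

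The libraries held 23423979 to 37351448 counts, with 22021 to 24578 genes detected. The biliary label was checked against marker genes: the keratin transcripts Krt7 and Krt19 were at 385 to 918 and 842 to 2160 deposited FPKM (a level scaled to transcript length and library size), and Epcam, an epithelial adhesion gene, was at 259 to 337. Summed markers of fibroblasts or stellate cells reached at most 0.192 FPKM in any library, and those of endothelial cells at most 0.122. Summed immune markers lay between 15.3 and 28.9 FPKM, carried by Cd68, Csf1r and Itgam, while Ptprc, which encodes the leukocyte marker CD45, stayed at or below 0.0239. The hepatocyte list, mainly Ttr and Hnf4a, summed to 174 to 423 FPKM in untreated, 253 to 514 in Rspo1-negative and 191 to 299 in Rspo1-positive libraries, and Cyp3a11 had no count in the first 2 groups. The 6 biliary markers summed to 3400 to 4180, 3520 to 4380 and 2990 to 3050 FPKM in the same order, so the sum was lowest in Rspo1-positive cells. Krt7 and Krt19 were lower there than in untreated cells (385 to 504 against 512 to 849, and 842 to 1020 against 1690 to 2160 FPKM), whereas Sox9, a biliary transcription factor gene, was at 26.1 to 43.1 against 7.99 to 17.6 and Spp1, which encodes osteopontin, at 876 to 1220 against 473 to 936, with overlap. Rspo1-negative cells had Sox9 at 21.2 to 38.7 and Spp1 at 763 to 1030 FPKM, overlapping the Rspo1-positive ranges. The part of these markers in the results on the AP-1 genes was not tested. Differences are log2 fold changes unless a level is named, with the standard error (SE) of the fit, and adjusted p-values are Benjamini-Hochberg values of edgeR over all genes tested, with calls under 0.05. The replicate block is a model term for passage, and the GC offset removes each library's trend with GC content and transcript length. Because the libraries are repeated cultures of cells from 1 animal, no p-value here measures the spread between animals. Without the block p-values measure the spread between cultures, and with it the spread that remains after the passage term. A difference between sorted populations may lie in how many cells express a gene or in how much RNA each cell holds, and bulk libraries cannot tell these apart.

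The promoter starts of the 4 members on which most of the results turn, or against which they are set, are shown as 110 bases from RefSeq (GRCm38.p6), from 100 before the RefSeq start to 10 from it, read 5′ to 3′ on the strand of the gene. They lie at chr12:85473790-85473899 on the plus strand (Fos), and on the minus strand at chr7:19310036-19310145 (Fosb), chr4:95052213-95052322 (Jun) and chr8:84978739-84978848 (Junb). Capitals mark exact matches to the TATA box (TATAAA) or the GC box (GGGCGG, read CCGCCC where it lies on the opposite strand).
Fos: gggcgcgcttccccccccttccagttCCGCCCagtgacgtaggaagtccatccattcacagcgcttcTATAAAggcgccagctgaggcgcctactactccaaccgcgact
Fosb: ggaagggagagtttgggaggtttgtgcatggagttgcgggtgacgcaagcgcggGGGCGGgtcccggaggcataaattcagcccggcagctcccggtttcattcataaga
Jun: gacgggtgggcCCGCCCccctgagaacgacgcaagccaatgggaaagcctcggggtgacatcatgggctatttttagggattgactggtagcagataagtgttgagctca
Junb: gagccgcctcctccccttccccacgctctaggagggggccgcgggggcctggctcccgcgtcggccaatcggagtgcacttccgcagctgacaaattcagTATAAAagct
Of the 10 members, 7 had an entry that could be used (Fos, Fosb, Fosl2, Jun, Junb, Jund and Atf3), and each was searched on both strands over 300 bases. These windows ran from 250 bases before the RefSeq start to 50 from it, and bases outside them were not searched. Positions count from 0 at the RefSeq start. Fos holds a TATA box at -33 and a GC box at -74, Fosb a GC box at -46 and Jun a GC box at -89. The TATA box of Junb lies at 0, and the annotation of the build places the start of that gene 30 bases downstream. In the same count of positions it places the start of Jund at 1210, of Fosl2 at -671 and of Atf3 at -34706. These 3 starts lie outside the windows searched, so the windows of these genes hold the RefSeq start only. The TATA box occurs in 13.6% of all 32851 RefSeq windows and the GC box in 35.7%, against 2 and 5 of the 7 members. The AP-1 element TRE (TGANTCA, in 7.81% of windows), the cyclic AMP element CRE (TGACGTCA, in 1.79%) and the CArG box of serum response factor (in 1.63%) had no exact match in these 7 windows. These matches describe letters, not binding.

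Fos, the founding Fos-family subunit (chr12:85473890-85477273, plus strand, GRCm38), was higher in tdTomato-positive cells than in either tdTomato-negative group. At passages 5, 6 and 10 it was at 183, 73.1 and 70.0 CPM (counts relative to the TMM-scaled library size) in untreated cells, at 170, 55.5 and 82.7 in Rspo1-negative cells and at 582, 201 and 293 in Rspo1-positive cells. The lowest Rspo1-positive library was thus above the highest library of both other groups, although passage 5 was the highest in each group. Means were 109 ± 64.5 (SD, n = 3), 103 ± 60.0 and 358 ± 199 CPM. By edgeR's quasi-likelihood test Fos was higher in the Rspo1-positive cells by 1.80 on the log2 scale when set against the Rspo1-negative ones (SE 0.52, adjusted p = 0.0307). Against untreated cells the difference was 1.72 (SE 0.52, adjusted p = 0.0947), and with passage as a replicate block it was 1.72 with adjusted p = 1.94e-05. The unblocked call between the sorted populations was lost without Rspo1-negative replicate 2 (adjusted p = 0.0963) or 3 (0.113), and without Rspo1-positive replicate 1 (1.26, adjusted p = 0.118) or 3 (0.0515). With the block it was called in 6 of 6 fits that left out 1 library.

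Fosb, whose protein takes the place of Fos in the dimer (chr7:19302696-19310051, minus strand, GRCm38), had the largest fold difference of the members in both comparisons of Rspo1-positive cells. It was at 11.5, 0.803 and 2.99 CPM in untreated cells at passages 5, 6 and 10. Rspo1-negative cells had 8.65, 2.67 and 3.22 CPM, and Rspo1-positive cells 94.3, 21.2 and 38.8. No Rspo1-positive library overlapped with another group. Fosb was 10.1-fold higher than in untreated cells (log2 3.33, SE 0.85, adjusted p = 0.0501 by edgeR), which missed the threshold, and the blocked value was 3.61 (adjusted p = 1.56e-05). Against Rspo1-negative cells the log2 difference was 3.39 (SE 0.86, adjusted p = 0.018). That call was lost without Rspo1-negative replicate 2 (0.0597) or 3 (0.0714), or without Rspo1-positive replicate 1 (0.0655), and in none of 6 such fits with the block.

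Fosl2 and Fosl1, the remaining Fos-family genes, passed the threshold in none of the 3 comparisons, with or without the block. Fosl2, which encodes the Fos-related subunit Fra-2, was at 113, 112 and 118 CPM in untreated cells, at 73.3, 102 and 94.3 in Rspo1-negative cells and at 112, 92.0 and 118 in Rspo1-positive cells. Rspo1-negative libraries were the lower ones against untreated cells, without overlap, and the difference of -0.35 did not pass the test (adjusted p = 0.119 by edgeR). Fosl1, which encodes Fra-1, was the lowest member by its mean in each group, at 1.23 to 2.88 CPM over all 9 libraries, with group means of 1.78, 1.80 and 1.75 CPM. Of its exon bases, 57.21% are shared with Ccdc85b on the opposite strand. The strand setting of the counting is not given in the sources used here, so reads of the shared bases cannot be told apart.

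Among the Jun-family genes, which encode the partners of Fos proteins, Jun (chr4:95049034-95052222, minus strand, GRCm38) was higher in Rspo1-positive cells. Its levels at passages 5, 6 and 10 were 113, 50.8 and 40.1 CPM in untreated cells, 98.8, 72.5 and 69.3 in Rspo1-negative cells and 233, 106 and 134 in Rspo1-positive cells. The Rspo1-positive libraries lay above all Rspo1-negative ones, whereas untreated passage 5 exceeded Rspo1-positive passage 6. The edgeR difference was 0.98 (SE 0.38, adjusted p = 0.0869) against Rspo1-negative and 1.22 (adjusted p = 0.111) against untreated cells. With the replicate block Jun was called higher in both, by 0.91 (adjusted p = 0.00309) and 1.27 (adjusted p = 0.000766). Junos, an antisense transcript that shares 7.28% of the Jun exon bases, was counted as a gene of its own, and without strand the reads of the shared bases cannot be told apart.

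Junb, a partner subunit that competes with Jun (chr8:84974484-84978718, minus strand, GRCm38), was at 303, 271 and 238 CPM in untreated, 271, 244 and 252 in Rspo1-negative and 266, 205 and 243 in Rspo1-positive cells. The 3 groups overlapped, and no comparison of Junb passed the edgeR test with group alone (adjusted p = 0.603 against untreated and 0.638 against Rspo1-negative cells). Jund, the subunit typical of resting cells (chr8:70698949-70700616, plus strand, GRCm38), had 209, 206 and 256 CPM in untreated, 271, 286 and 373 in Rspo1-negative and 168, 218 and 246 in Rspo1-positive cells. Every Rspo1-negative library was above every library of the other groups. Between the 2 sorted populations Jund was lower in the Rspo1-positive one, at a log2 difference of -0.56 (SE 0.18, adjusted p = 0.0486 by edgeR), and this call was lost in 5 of the 6 unblocked fits that left out 1 library. With the block it was called (adjusted p = 0.00569), except without Rspo1-positive replicate 1 (0.0547). Jund has the highest exonic GC content of the members (67.1%), and log2 differences between these groups fell with GC content across 17001 genes (rank correlation -0.504). After an offset for GC content and length the Jund difference was -0.11 (adjusted p = 0.662), and with block and offset also -0.11 (adjusted p = 0.465). Gm11175 on the opposite strand shares 52.58% of the Jund exon bases, so that its counts may include reads of that gene.

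**Figure D1:**
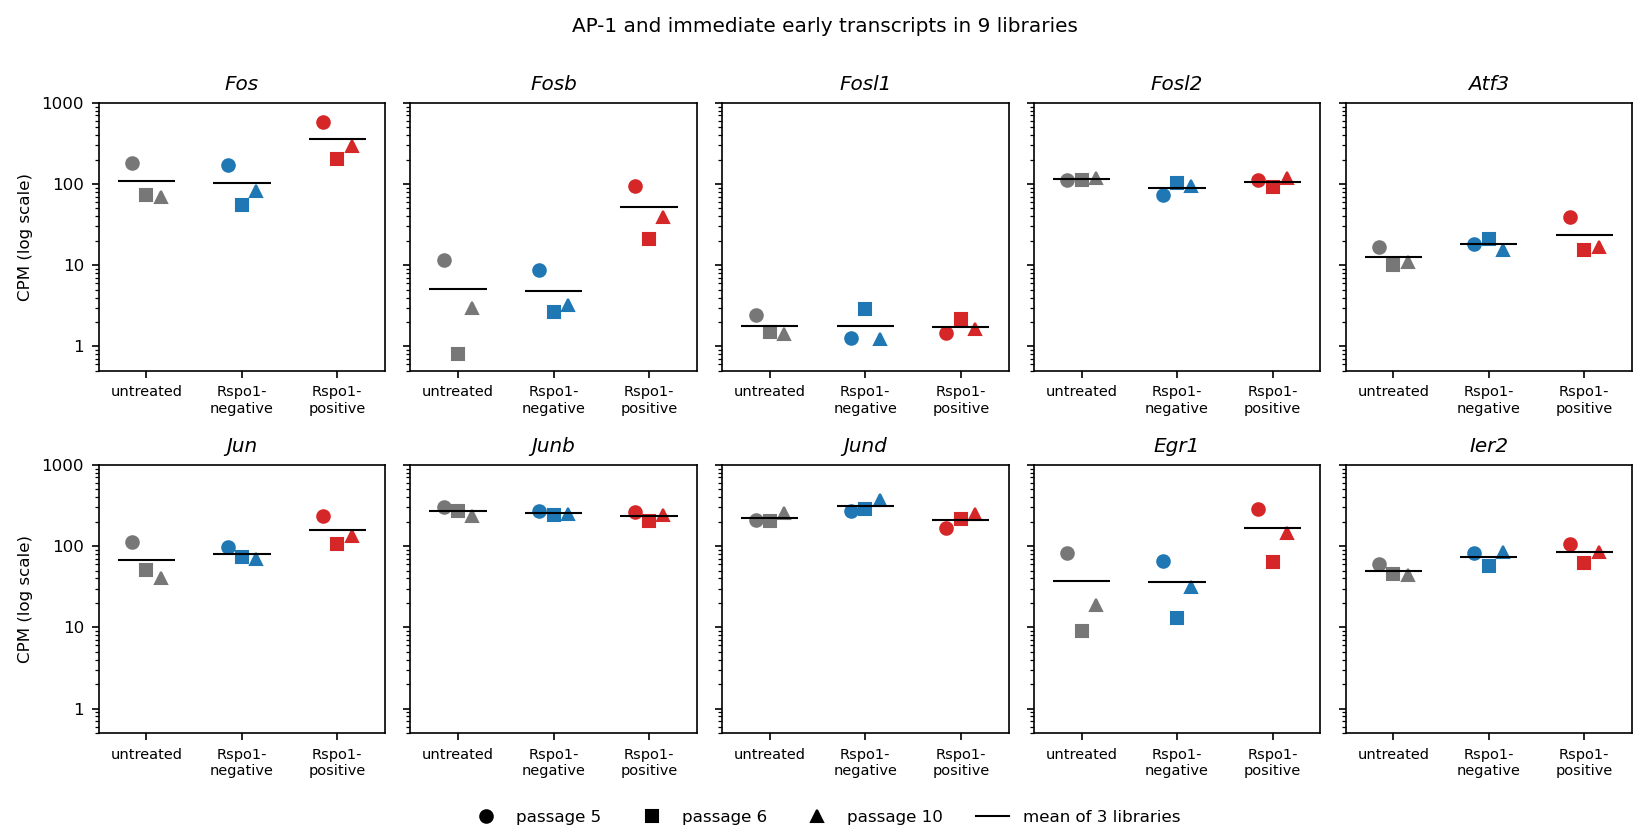
Level of each member in the 9 libraries, as CPM on a log axis shared by all panels, by group on the x axis. Marker shapes give the passage and bars the mean of 3 libraries. Rspo1-positive libraries of Fos and Fosb lie above all others, and passage 5 is the highest point of every group for Fos, Fosb, Jun and Egr1. CPM does not correct for gene length, so panels are not to be compared in level.

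Egr1, a zinc-finger factor induced through serum response factor, differed strongly between passages, and within each of them was highest in Rspo1-positive cells. It was at 82.9, 9.03 and 18.6 CPM in untreated cells at passages 5, 6 and 10. Rspo1-negative cells had 65.3, 13.2 and 31.4 CPM and Rspo1-positive cells 290, 63.0 and 147. Rspo1-positive passage 6 fell below passage 5 of both other groups, so the groups overlapped. The edgeR difference was 2.18 in both comparisons, with adjusted p = 0.193 against untreated and 0.0782 against Rspo1-negative cells. With the replicate block it was 2.49 (adjusted p = 2.24e-05) and 2.22 (adjusted p = 0.000166), called in 6 of 6 fits that left out 1 library in each comparison.

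Ier2, a small nuclear immediate early protein, had higher mean levels in both Rspo1-treated groups. It was at 60.2, 45.5 and 43.5 CPM in untreated, 82.8, 57.1 and 83.5 in Rspo1-negative and 106, 61.3 and 85.2 in Rspo1-positive cells. Rspo1-positive libraries lay above all untreated ones, and Rspo1-negative passage 6 was the only treated library below an untreated one. The difference from untreated cells was 0.76 for Rspo1-positive (adjusted p = 0.0855 by edgeR) and 0.58 for Rspo1-negative cells (adjusted p = 0.085). The blocked values were 0.73 (adjusted p = 0.00473) and 0.57 (adjusted p = 0.00881). With block and GC offset the first was 0.78 (adjusted p = 0.00343) and the second 0.11 (adjusted p = 0.586). Between the sorted populations Ier2 differed by 0.18 (adjusted p = 0.599), and with block and offset by 0.66 (adjusted p = 0.00799).

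Atf3, a stress-induced bZIP factor that pairs with Jun proteins, was at 16.6, 10.2 and 11.0 CPM in untreated, 18.4, 21.2 and 15.4 in Rspo1-negative and 39.2, 15.4 and 17.0 in Rspo1-positive cells. Only passage 5 of the Rspo1-positive group stood apart. The difference from untreated cells was 0.92 (adjusted p = 0.18 by edgeR) and 0.85 with the block (adjusted p = 0.0346). That blocked call was kept in 1 of 6 fits that left out 1 library.

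Counted over all members against untreated cells, edgeR without the block called 0 of 10 higher and 0 lower in Rspo1-positive cells, beside 3.07% and 2.13% of all genes. An unadjusted p under 0.05 was reached by 6 members, beside 17.5% of all genes, and DESeq2's Wald test called 3 (Fosb, Jun and Ier2), beside 8.85%. The median difference was 0.84 over the members and -0.01 over all genes. Rspo1-positive libraries lay wholly above untreated ones for 3 members (Fos, Fosb and Ier2), beside 11.4% of all genes, and wholly below for 0, beside 11.8%. With the replicate block 6 members were higher (Fos, Fosb, Jun, Egr1, Ier2 and Atf3), beside 6.44% of all genes, and 0 lower, beside 6.77%. The same 6 members have an adjusted p under 0.05 in the authors' deposited table, which gives 1.74 for Fos and 2.53 for Egr1 on the log2 scale.

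Between the sorted populations of the Rspo1-treated organoids, 2 members were called higher in Rspo1-positive cells without the block (Fos and Fosb), beside 14.6% of all genes, and 1 lower (Jund), beside 9.78%. The member median was 0.32 and that of all genes 0.03. Libraries did not overlap for 3 members that were higher (Fos, Fosb and Jun), beside 24.6%, and for 1 that was lower (Jund), beside 20.6%. With the block 4 were higher (Fos, Fosb, Jun and Egr1), beside 21.5%, and Jund was the 1 lower, beside 17.4%. These 5 genes are also those under 0.05 in the authors' deposited table. The share of all genes called was large here, and the members' counts are to be read against it. With the GC offset 2 members were higher (Fos and Fosb), beside 913 of 17011 genes, and 0 lower, beside 538. The member median was then 0.71, beside 0.08 over all genes. With block and offset 5 were higher (Fos, Fosb, Jun, Egr1 and Ier2), beside 2509 genes, and 0 lower, beside 1473.

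For Rspo1-negative against untreated cells the members' counts are likewise to be read against the shares of all genes. Without the block edgeR called 0 of 10 higher, beside 8.0% of all genes, and 0 lower, beside 13.9%. An unadjusted p under 0.05 was reached by 3 (Jund, Ier2 and Fosl2), beside 36.2%, and DESeq2's Wald test called 2 (Jund and Ier2), beside 27.7%. Libraries did not overlap for Jund (1 higher, beside 16.4%) and Fosl2 (1 lower, beside 20.0%). With the block 2 were higher (Jund and Ier2, beside 15.5%) and 0 lower, beside 20.0%. Jund was higher by 0.46 (adjusted p = 0.0155), a call kept in 3 of 6 fits that left out 1 library. With block and offset it was -0.04, the Junb difference was -0.55 (adjusted p = 0.0144) and that of Fos -0.41 (adjusted p = 0.0414). The untreated libraries serve in 2 of the 3 comparisons, and so does each of the other groups, so the comparisons are not independent of each other.

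**Figure D2:**
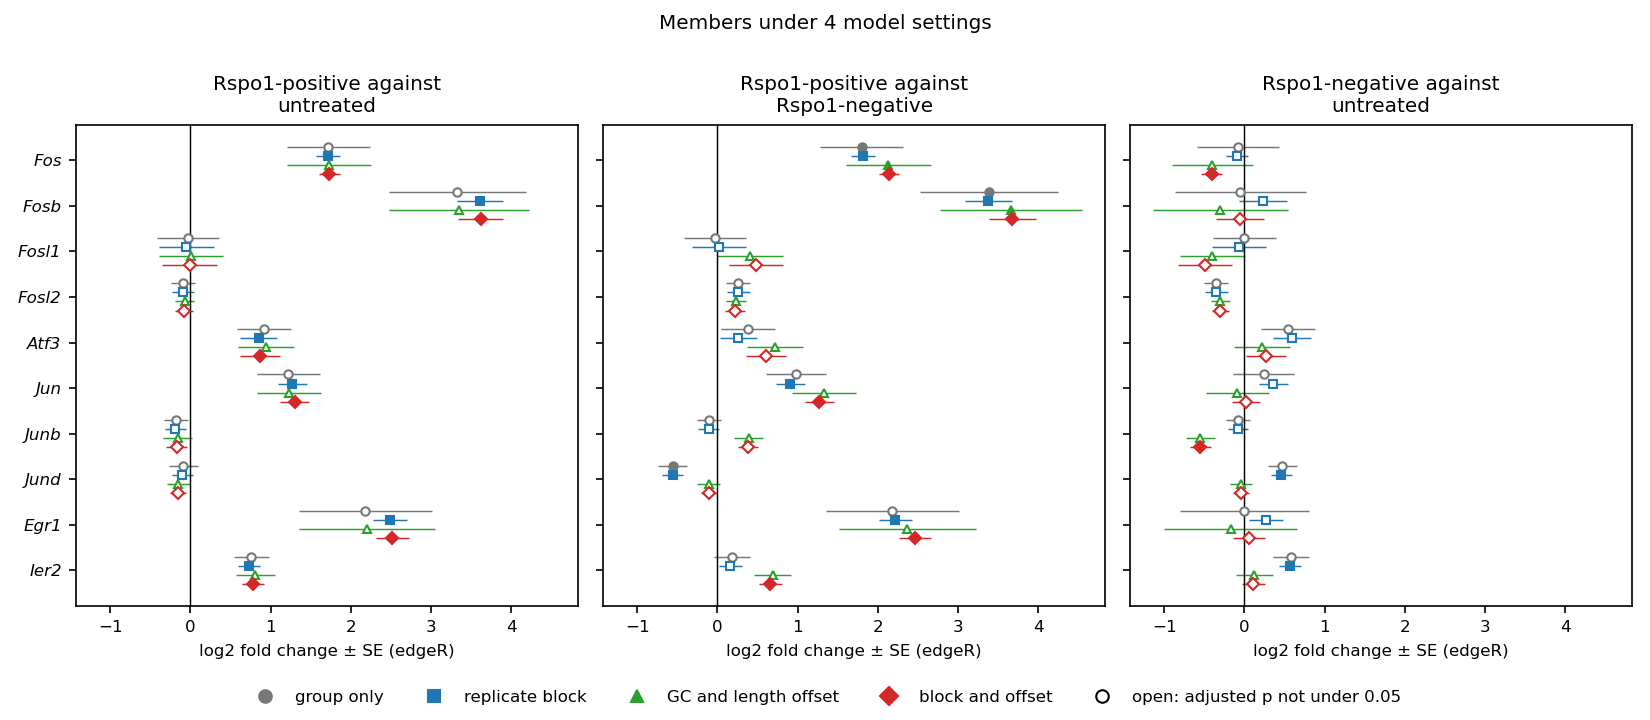
Log2 fold change of each member with its SE (x axis) in the 3 comparisons, under 4 edgeR models: group only, with passage as a replicate block, with an offset for GC content and length, and with both. Filled markers have an adjusted p under 0.05. Error bars of Fos, Fosb, Jun and Egr1 shrink with the block, and the 2 Jund differences that involve Rspo1-negative cells move towards 0 with the offset (-0.11 and -0.04).

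Inside each passage, the ratio of the sorted populations was nearly constant for Fos and Egr1. The difference of log2 CPM between Rspo1-positive and Rspo1-negative cells was 1.77, 1.85 and 1.82 for Fos at passages 5, 6 and 10 (SD 0.0413), and 2.15, 2.25 and 2.22 for Egr1 (SD 0.0523). The median of this SD over the 9888 genes with a mean of at least 10 CPM was 0.18. Junb (SD 0.125), Jund (0.153) and Ier2 (0.17) were also under it. Fosb gave 3.44, 2.96 and 3.57 (SD 0.321), and Jun 1.24, 0.55 and 0.96 (SD 0.346). For Fos, Egr1, Fosb and Jun the direction was the same in 3 of 3 passages, as it was for Jund. It was also the same for Junb (-0.02, -0.25 and -0.05) and Ier2 (0.35, 0.1 and 0.03), where the differences were small. The share of all genes that kept their direction is not given here. Atf3, at 1.09, -0.46 and 0.14, changed direction between passages. Against untreated cells the ratios were less even: 1.67, 1.46 and 2.06 for Fos, and 1.81, 2.80 and 2.97 for Egr1.

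**Figure D3:**
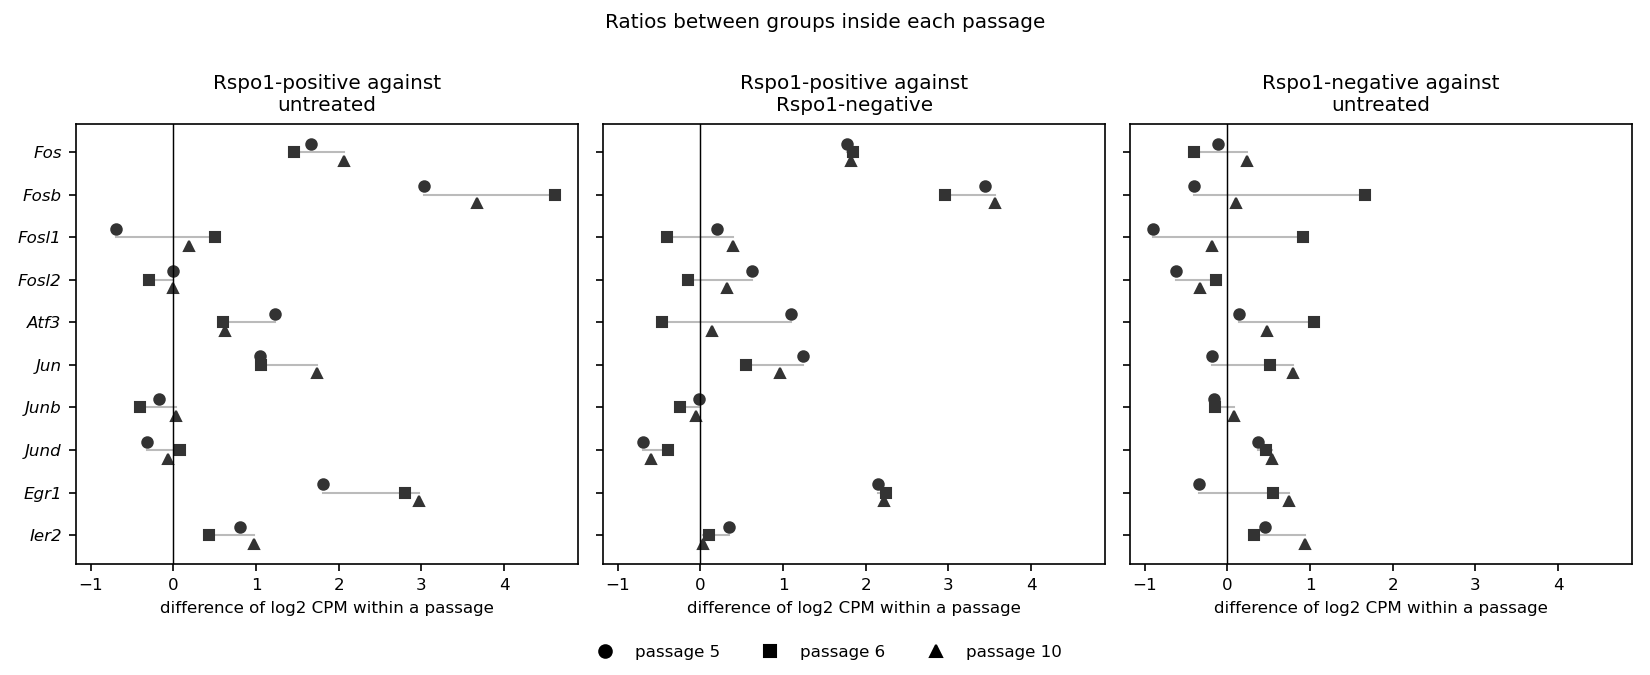
Difference of log2 CPM between 2 groups at the same passage (x axis) for each member, with 1 marker per passage and a line over their range. Between Rspo1-positive and Rspo1-negative cells the 3 markers of Fos (1.77 to 1.85) and Egr1 (2.15 to 2.25) nearly coincide, and those of Atf3 lie on both sides of 0.

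Levels of Fos, Fosb, Jun and Egr1 also differed between passages. An edgeR test of both passage terms called 5 of the 10 members (these 4 and Ier2), beside 12.0% of all genes, while Atf3 had adjusted p = 0.0963. Egr1 had adjusted p = 0.000394, Fos 0.00051, Fosb 0.00108 and Jun 0.00801. Ier2, at 0.0473, was lost in 7 of 9 fits that left out 1 library, and Jun without untreated replicate 1 (0.0609). Passage 5 was above passage 6 by 2.51, 3.07 and 2.90 times for Fos in untreated, Rspo1-negative and Rspo1-positive cells. The same ratio was 9.18, 4.95 and 4.60 for Egr1, and 14.3, 3.23 and 4.45 for Fosb. Junb had ratios of 1.12, 1.11 and 1.30 and adjusted p = 0.382. Each group was sampled once per passage, so the passage number and anything else that differed between those samplings cannot be told apart.

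Per transcript length, the Jun-family sum was above the Fos-family sum in every library. At passage 5 of the Rspo1-positive group they were nearly equal (318 and 316 FPKM). In untreated cells deposited FPKM ranked Junb (147 ± 17.9, SD, n = 3), Jund (132 ± 16.4), Fos (50.8 ± 30.3), Ier2 (32.2 ± 5.99), Jun (21.0 ± 12.2), Fosl2 (17.2 ± 0.492), Egr1 (8.10 ± 8.85), Atf3 (6.26 ± 1.75), Fosb (1.33 ± 1.47) and Fosl1 (1.03 ± 0.328). Neighbours in this order had overlapping ranges except Jund and Fos, and Atf3 and Fosb. In Rspo1-negative cells Jund led (187 ± 30.7) and its lowest library, at 168 FPKM, was above the highest of Junb, at 155. In Rspo1-positive cells Fos led (168 ± 93.7), before Junb (130 ± 16.5) and Jund (124 ± 22.2), with overlapping ranges. There Fos was above Junb at passage 5 (274 against 146 FPKM) and passage 10 (135 against 130) and below it at passage 6 (95 against 113). Egr1 came sixth at 36.6 ± 25.4 FPKM and Fosb eighth, with a mean of 13.4.

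The 4 Fos-family genes summed to 52 to 107 FPKM in untreated, 44.3 to 98.2 in Rspo1-negative and 116 to 316 in Rspo1-positive libraries. The 3 Jun-family genes summed to 284 to 324, 329 to 383 and 277 to 318 FPKM. The ratio of the 2 sums was 0.331, 0.183 and 0.178 at passages 5, 6 and 10 in untreated cells, 0.277, 0.135 and 0.143 in Rspo1-negative cells, and 0.993, 0.419 and 0.519 in Rspo1-positive cells. The lowest Rspo1-positive ratio was above the highest of the other groups. Fos made up 59.4% to 85.0% of its family's FPKM in the tdTomato-negative groups and 82.0% to 86.5% in the Rspo1-positive group. The Fosb share was at most 2.79% in the tdTomato-negative groups and 4.83% to 7.82% in the Rspo1-positive group. Jun made up 4.22% to 10.8% of the Jun family in the tdTomato-negative groups and 12.0% to 22.8% in the Rspo1-positive group. Sums over genes are of transcripts, and proteins were not measured.

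**Figure D4:**
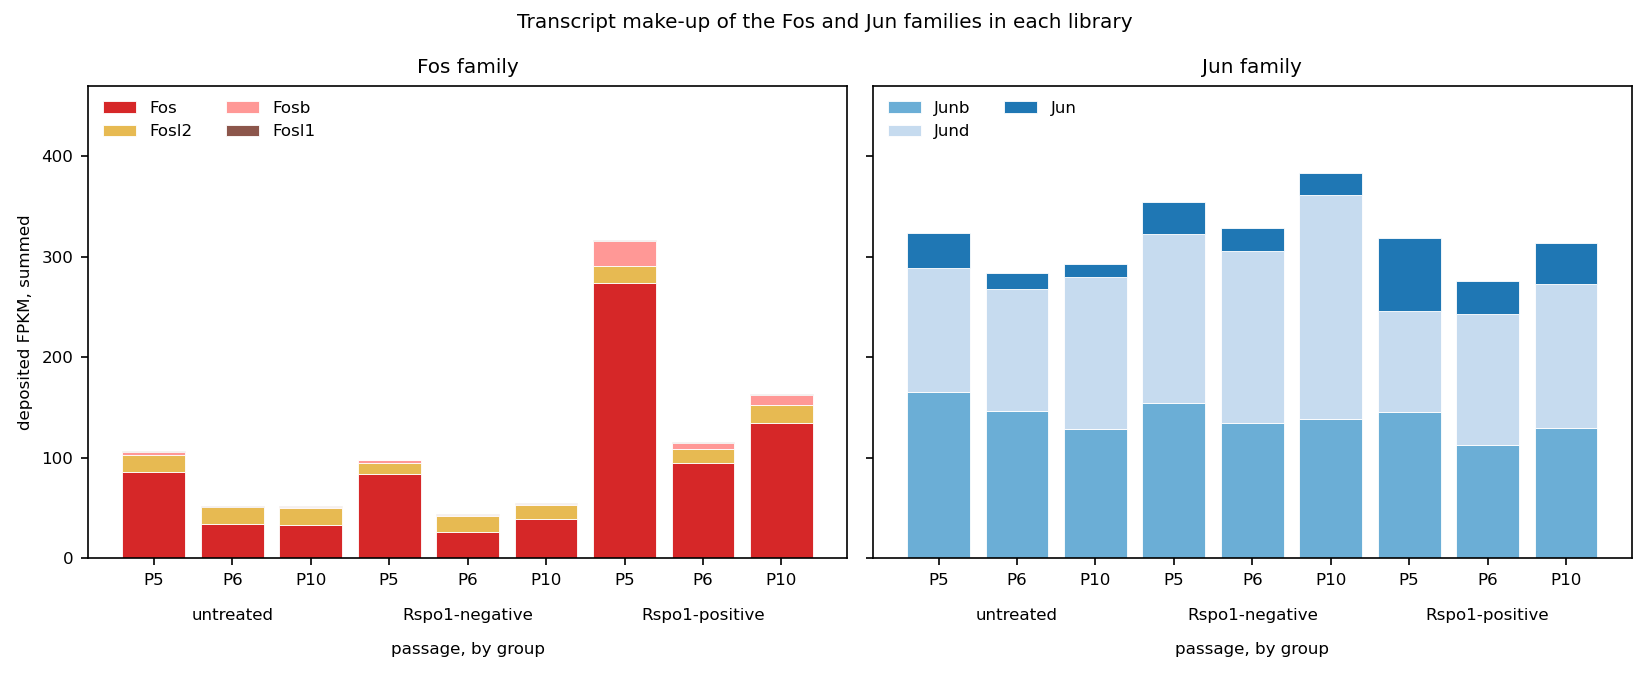
Deposited FPKM of the Fos-family genes (left) and Jun-family genes (right), stacked in each of the 9 libraries by group and passage (P5, P6, P10). The Fos-family bars of the Rspo1-positive group (116 to 316) exceed those of the other groups (44.3 to 107), while the Jun-family bars stay between 277 and 383.

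Genes whose log2 CPM followed Fos most closely over the 9 libraries were Ddx1 (Pearson r = 0.969), Egr1 (0.963), Fosb (0.947), Tasp1 (0.946) and Hells (0.944), and Jun stood at place 13 of 17010 genes. Those most like Jun were Junos (0.989), Ctps (0.949), Ddx1 (0.940), Spata5 (0.939) and Add3 (0.930), and Junos overlaps Jun on the opposite strand. For Atf3 the highest were 6530437J22Rik (0.904), C630004M23Rik (0.883), Gm27913 (0.875), Junos (0.862) and Gm14471 (0.858). Junb (place 7666 for likeness to Fos) and Jund (16011) lay far from Fos. The 9 points share 3 passages and 3 groups, so that these values describe the ranking only.

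Lists of genes around AP-1 were counted in the same fits. The GC offset, without the block unless both are named, is given where it ended a call or moved a value by over 1.5 times. List counts are to be read against those of all genes. In Rspo1-positive against untreated cells 3.07% were higher and 2.13% lower (with the block 6.44% and 6.77%). Between the sorted populations these were 14.6% and 9.78% (with the block 21.5% and 17.4%), and with the offset 913 and 538 of 17011 genes. For Rspo1-negative against untreated cells they were 8.0% and 13.9%, and with the offset 600 and 1029 genes. The AP-1 partners are other bZIP genes whose proteins can pair or compete with Fos and Jun. Of 17 tested, 0 were called between Rspo1-positive and untreated cells, 0 had an unadjusted p under 0.05 and DESeq2 called 0, and the median was -0.11 beside -0.01 over all genes. In the comparison of the sorted populations 4 were higher in Rspo1-positive cells (Atf1, Atf2, Atf7 and Creb1) and 2 lower (Creb3 and Maff), with a median of 0.03, that of all genes. Atf2, which encodes a partner of Jun, was at 19.6, 22.3 and 13.9 CPM in Rspo1-negative cells and at 42.5, 41.7 and 41.3 in Rspo1-positive cells, a difference of 1.17 (SE 0.17, adjusted p = 0.00207 by edgeR). Creb1, which encodes a cyclic AMP response factor, differed by 1.42 (SE 0.28, adjusted p = 0.00723). With the GC offset 2 were higher (Atf1 and Atf2) and 0 lower, Atf2 differing by 0.60 (adjusted p = 0.0258) and Creb1 by 0.53 (adjusted p = 0.182). Against untreated cells both were lower in Rspo1-negative cells without the offset, at -1.10 (adjusted p = 0.00216) and -1.53 (adjusted p = 0.00533), among 4 lower and 1 higher. With it Atf2 was at -0.55 (adjusted p = 0.0329) and Creb1 at -0.62 (adjusted p = 0.122), among 3 lower and 0 higher.

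The other immediate early genes held 24 tested genes. Between Rspo1-positive and untreated cells 3 were higher and 0 lower, and with the block 8 and 3, with a median of 0.12. Cyr61, a matricellular growth factor, was at 76.3, 67.6 and 54.3 CPM in untreated and at 178, 123 and 155 in Rspo1-positive cells, a difference of 1.20 (SE 0.19, adjusted p = 0.00427 by edgeR). Nr4a1, a nuclear receptor, differed by 1.94 (SE 0.41, adjusted p = 0.0218) and Plk2, a polo-like kinase, by 0.60 (adjusted p = 0.0432). Set against Rspo1-negative cells, Nr4a1 (1.54), the zinc-finger gene Klf6 (0.52) and the cyclooxygenase gene Ptgs2 (1.43, at a low CPM) were higher and the small GTPase gene Rhob (-0.46) lower, and the blocked counts were 8 and 4. With the offset 3 of these 4 calls were lost, at 0.04 for Klf6 (adjusted p = 0.869), 0.82 for Ptgs2 (0.244) and -0.04 for Rhob (0.906), and 4 genes were higher (Nr4a1, Klf4, Cyr61 and Gadd45a) and 0 lower. Cyr61 also exceeded its untreated level in Rspo1-negative cells, by 0.80 (adjusted p = 0.0138), a call lost with the offset (0.46, adjusted p = 0.128). Klf6 was lower there, at -1.07 (adjusted p = 0.00212) and with the offset at -0.61 (adjusted p = 0.0233), and with the offset it was also called lower in Rspo1-positive than in untreated cells, at -0.57 (adjusted p = 0.0338).

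Feedback inhibitors, which dephosphorylate kinases, destroy early messenger RNAs or repress Egr factors, held 19 tested genes. Against untreated cells Trib1, which encodes a pseudokinase, was higher in Rspo1-positive cells by 0.60 (adjusted p = 0.0389 by edgeR) and the antiproliferative gene Btg1 lower, at -0.64 (adjusted p = 0.0312). Set against Rspo1-negative cells, 4 were higher and 0 lower, with a median of 0.19, and with the block 7 and 0. They were Nab1, a co-repressor of Egr factors (1.29, adjusted p = 0.00275), the RNA-decay genes Zfp36l1 (0.84, adjusted p = 0.00395) and Zfp36 (0.97, adjusted p = 0.0254), and Spred1, an inhibitor of Ras signalling (0.78, adjusted p = 0.0132). With the offset Spred1 was at 0.06 (adjusted p = 0.855), and 5 genes were higher (Zfp36, Zfp36l1, Zfp36l2, Nab1 and Trib1) and 1 lower (Btg1, at -0.72, adjusted p = 0.021). Zfp36 was at 94.5, 71.6 and 58.6 CPM in Rspo1-negative cells and at 216, 116 and 110 in Rspo1-positive cells. Nab1, Zfp36l1 and Spred1 were among 5 genes lower in Rspo1-negative than in untreated cells, where 0 were higher, and with the offset Spred1 lost that call too (-0.11, adjusted p = 0.70).

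The 29 upstream kinases and serum response factor genes gave 0 calls between Rspo1-positive and untreated cells by edgeR, with 4 at an unadjusted p under 0.05 and 3 by DESeq2, all lower. With the block 3 were lower: Mapk3, Map2k1 and Rps6ka1, which encode the kinases ERK1, MEK1 and RSK1. Between the sorted populations 6 were higher and 3 lower, with a median of 0.15. Rps6ka3, which encodes the kinase RSK2, differed by 1.31 (SE 0.16, adjusted p = 0.00175) and the Raf kinase gene Braf by 1.61 (SE 0.25, adjusted p = 0.00258). With the offset 3 were higher (Braf, Rps6ka3 and Srf) and 0 lower, with Rps6ka3 at 0.48 (adjusted p = 0.0366) and Braf at 0.81 (adjusted p = 0.0344). Both were lower in Rspo1-negative than in untreated cells, at -1.55 (adjusted p = 0.000993) and -1.51 (adjusted p = 0.00294), among 7 lower and 0 higher. The offset brought each of them to -0.72 (adjusted p = 0.00953 and 0.0454), among 5 lower and 0 higher.

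Of 15 tested textbook AP-1 target genes, 0 were higher and 2 lower in Rspo1-positive cells against untreated ones (median -0.26, beside -0.01), and with the block 4 and 4. Gclc, a glutathione synthesis enzyme, was at 624, 524 and 611 CPM in untreated, 292, 297 and 283 in Rspo1-negative and 317, 280 and 277 in Rspo1-positive cells. It was lower, at -1.01 in both treated groups (adjusted p = 0.00197 and 0.00135). Ezr, which links actin to the membrane, was lower, at -0.72 in Rspo1-positive cells (adjusted p = 0.0442). Among Rspo1-treated cells, tdTomato-positive against negative, Cd44, the hyaluronan receptor, was higher by 0.61 (adjusted p = 0.0135) and Hmox1, which encodes heme oxygenase, lower, at -0.93 (adjusted p = 0.0457). Both calls were lost with the offset, at 0.12 for Cd44 (adjusted p = 0.608) and -0.53 for Hmox1 (adjusted p = 0.282), which left 0 higher and 0 lower. The collagenase and stromelysin genes Mmp1a, Mmp3, Mmp9, Mmp10 and Mmp13 and the cytokine gene Il6 did not reach the count minimum.

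Heat shock genes are also known to be induced by heat and by dissociation. Of 14 tested, 0 were higher and 1 lower in Rspo1-positive cells against untreated ones, and with the block 0 and 3. Hspa1b, which encodes an inducible HSP70, was at 243, 139 and 145 CPM in untreated, 114, 106 and 103 in Rspo1-negative and 111, 63.1 and 87.6 in Rspo1-positive cells, a difference of -1.01 (SE 0.24, adjusted p = 0.0382 by edgeR). Against Rspo1-negative cells the co-chaperone genes Dnaja1 (0.70) and Dnajb4 (0.86) were higher and Hspb1 lower (-0.82), and with the block 4 and 3. With the offset none of these 3 was called, Dnaja1 being at 0.01 (adjusted p = 0.967), Dnajb4 at 0.28 (0.381) and Hspb1 at -0.32 (0.412), and the list had 0 calls in this comparison. The list's median was -0.12 in the first and -0.09 in the second of these comparisons.

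Dexamethasone, which all groups received, activates the glucocorticoid receptor, a known antagonist of AP-1. Of its 10 induced genes, 0 were higher and 2 lower in Rspo1-positive cells against untreated ones (median -0.35). Tsc22d3, which encodes the glucocorticoid-induced leucine zipper, was at 284, 224 and 165 CPM in untreated and at 149, 106 and 116 in Rspo1-positive cells, a difference of -0.86 (adjusted p = 0.0336 by edgeR). Fkbp5, a receptor co-chaperone, was lower, at -0.99 (adjusted p = 0.0456). Relative to Rspo1-negative cells Tsc22d3 (-0.75) and Cdkn1c (-1.34) were lower and Klf9 higher (0.70), and with the block 4 were lower and 1 higher. With the offset Tsc22d3 (-0.67, adjusted p = 0.056) and Cdkn1c (-0.86, adjusted p = 0.102) lost their calls and Klf9 kept its own (0.54, adjusted p = 0.0377). No group without dexamethasone was analysed here, and the part of the hormone in the levels of the AP-1 genes was not tested.

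**Figure D5:**
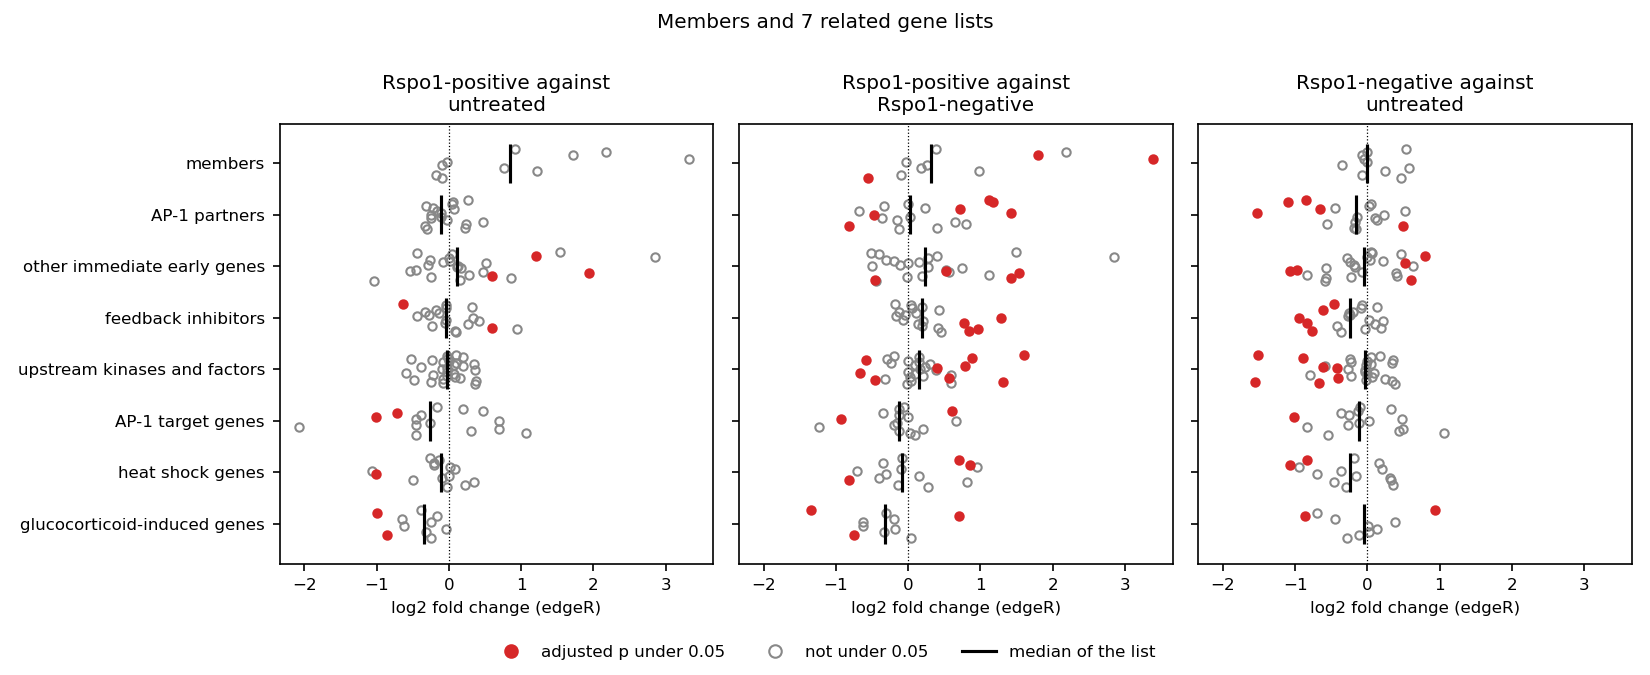
Log2 fold change (edgeR, x axis) of every tested gene of the members and of 7 related lists, in the 3 comparisons. Filled red points have an adjusted p under 0.05, open points do not, and bars give the median. The members' median of 0.84 against untreated cells stands beside 0.12 for the other immediate early genes, and the heat shock (-0.12) and glucocorticoid-induced (-0.35) medians are below 0.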

How the data were processed

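RNA of sorted organoid cells was sequenced as single-end 75 bp reads from 100 ng of total RNA, per the labels' protocols. The submitters' processing notes name Trimmomatic 0.35, FastQC 0.11.2, STAR 2.5.1b, featureCounts, DESeq2 and GRCm38, without role or order. The strand setting is not given in the sources used here. Per the file headers, the authors deposited raw counts and FPKM per gene for each library. Deposited FPKM followed a median-of-ratios scale, not total counts, and entered no test. The authors also deposited tables of comparisons with base mean (a normalised signal), log2 fold changes with standard errors, a test score, and p-values with adjusted p-values.

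The deposited counts were tested with edgeR 4.0.16 in R 4.3.3: filterByExpr (minimum count 10, minimum total 15), TMM scaling, 1 model of 3 groups over 9 libraries, quasi-likelihood F-tests and Benjamini-Hochberg adjustment over 17011 genes, with calls at an adjusted p under 0.05. Log2 CPM used a prior count of 2. The script was tested on simulated data. Same-passage libraries deviated together from their group means (correlation 0.123 to 0.573 in 9 pairs). The 18 pairs of different passages had -0.476 to 0.0826. Deviations within a group sum to 0, so these 18 values are not independent of the 9. The passages were taken to pair the libraries, and blocked values are printed where they change a call. Alternatives were DESeq2 1.42.0 (size factors, Wald and likelihood ratio tests), upper-quartile scaling, no filter, only the 6 libraries compared, the block, an offset for GC content and length (splines of 5 degrees of freedom, 17001 genes), leaving out each library, and, chosen after seeing the data, leaving out each library with the block.

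The members and lists were chosen with earlier results of these data known. All 10 members are named, with up to 4 genes per list and comparison (smallest adjusted p) and the 5 genes most like Fos, Jun and Atf3. Egr1, Fosl1 and Ier2 have no promoter shown here.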

Additional observations from a re-analysis of the deposited data

How the results depend on the processing

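Over the 3 comparisons the numbers of genes called were 886 for Rspo1-positive against untreated cells, 4141 for the 2 sorted Rspo1-treated populations and 3724 for Rspo1-negative cells against untreated ones, and passage gave 2038. The first was 1506 with DESeq2's Wald test, 1446 without the filter, 2247 with the replicate block and 2677 with block and GC offset. The second was 6624 with the block and 1451 with the offset. The third was 2299 with only 6 libraries, 6039 with the block and 1629 with the offset. Passage gave 3782 without the filter. The cause was not tested. Without 1 library the ranges were 390 to 899, 2061 to 4068, 1800 to 3772 and 916 to 3690, and with the block 1112 to 2178, 3674 to 7029 and 3229 to 7427 for the first 3.

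No reversal of sign touched Fos, Fosb, Jun or Egr1 in either comparison of Rspo1-positive cells, under any alternative run. Reversals were found where the log2 difference was small, and in Jund. Against untreated cells, Rspo1-positive Fosl1 was 0.01 with upper-quartile scaling and 0.01 with the offset. Between the sorted populations Fosl1 was 0.02 with the block, 0.41 with the offset and 0.48 with both, and Junb 0.39 with the offset and 0.38 with both. For Rspo1-negative against untreated cells, Fos was 0.00 and Fosb 0.03 with upper-quartile scaling, and Fosb 0.01 without the filter and 0.23 with the block. Fosl1 was -0.00 with 6 libraries, -0.07 with the block, -0.40 with the offset and -0.49 with both. With the offset Jun was -0.09, and Jund -0.04 with the offset and -0.04 with both. Egr1 was 0.04 with DESeq2 size factors, 0.08 with upper-quartile scaling, 0.03 with the Wald test, 0.06 without the filter, 0.27 with the block and 0.06 with block and offset.

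Leaving out 1 library, with or without the block, moved the following across 0. Against untreated cells, Rspo1-positive Fosl1 ranged from -0.41 to 0.39, Fosl2 from -0.21 to 0.05 and Jund from -0.21 to 0.05. Between the sorted populations Atf3 ranged from -0.18 to 0.61, Fosl1 from -0.28 to 0.46 and Ier2 from -0.02 to 0.36. For Rspo1-negative against untreated cells, Egr1 ranged from -0.72 to 1.41, Fos from -0.65 to 0.53, Fosb from -0.79 to 1.36, Fosl1 from -0.48 to 0.37, Jun from -0.03 to 0.82 and Junb from -0.17 to 0.01. Fosl1 has the lowest mean CPM of the members in each group, and the lowest single count was 24, for Fosb in untreated cells at passage 6. The part of depth in these ranges was not tested.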
